A study of Mus musculus with 32 samples.

Results

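The genes examined here are 7 connexins, *Gja5*, *Gja4*, *Gjc1*, *Gja1*, *Gjb6*, *Gjb2*, and *Gjb1*, and the pannexin *Panx1*, 8 of the 55357 genes counted in brain arteries of mice. They were matched by Ensembl identifier. The set was chosen by the level of *Gja5*, which was higher in the CADASIL model in these same data, with the other genes added as channels of the arterial wall and the tissue around it. The difference of *Gja5* between that model and its controls is therefore a description and is given without a test. CADASIL is a small vessel disease of the brain caused by dominant mutations of NOTCH3, a receptor of mural cells. All 8 genes passed the filter on low counts in each comparison.

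RNA was sequenced from brain arteries dissected under a stereomicroscope in cold PBS and frozen, 1 library per mouse and 8 mice in each of 4 groups. *Notch3*-/- mice, which lack functional Notch3, and *Notch3*+/+ mice were 3 months old. TgNotch3R169C mice and the WT mice without the transgene were 12 months old. TgNotch3R169C mice carry rat *Notch3* with an arginine-to-cysteine mutation, expressed from a phage P1-derived artificial chromosome in addition to the mouse gene, and the transgene lies on the X chromosome. All lines were backcrossed onto C57BL/6, and no group was treated. The study used both sexes of the transgenic line, and no sex is given per mouse in the labels. Each library held between 20289487 and 54481934 counts. Levels are given as CPM, counts scaled by TMM-normalized library size, as mean ± SD (n = 8 mice per group), followed by the lowest, median, and highest mouse. Changes are log2 fold changes with their standard error (SE), and adjusted p values are from edgeR's quasi-likelihood test with Benjamini-Hochberg adjustment over all genes tested.

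Connexins are 4-pass membrane proteins. A ring of them in one cell docks with a ring in the next cell to form a gap junction channel through which ions and small molecules pass. In arteries, Cx40 (*Gja5*) and Cx37 (*Gja4*) join endothelial cells, and they help carry dilation along the vessel and, at myoendothelial junctions, between endothelium and smooth muscle. Cx45 (*Gjc1*) is found in smooth muscle, Cx43 (*Gja1*) in astrocytes, meninges, and vessel wall, Cx30 (*Gjb6*) in astrocytes and meninges, Cx26 (*Gjb2*) in meninges, and Cx32 (*Gjb1*) in oligodendrocytes. Pannexin 1 forms large single-membrane channels that release ATP.

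Promoter sequence was available for 7 of the 8 genes from RefSeq (build GRCm38.p6), and 4 windows are shown because the levels below turn on these genes. *Gja5* is the arterial gene around which the set was chosen. *Gjb2* and *Gjb6* are neighbors on chromosome 14, with starts 28909 bases apart on the same strand, and their levels moved together across mice. *Panx1* is the only 1 of the 7 whose window holds the letters TGGGAA, the core motif of RBPJ, the DNA-binding partner of Notch. Each sequence is the 250 bases before the annotated start, written 5′ to 3′ on the gene's strand, and capitals mark the motif.
Gja5 (chr3:97032152-97032401, plus strand): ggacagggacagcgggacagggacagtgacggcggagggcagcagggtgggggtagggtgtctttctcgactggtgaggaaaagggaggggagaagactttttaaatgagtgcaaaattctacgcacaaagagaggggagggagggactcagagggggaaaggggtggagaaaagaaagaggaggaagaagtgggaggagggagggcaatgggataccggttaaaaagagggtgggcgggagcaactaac
Gjb2 (chr14:57104703-57104952, minus strand): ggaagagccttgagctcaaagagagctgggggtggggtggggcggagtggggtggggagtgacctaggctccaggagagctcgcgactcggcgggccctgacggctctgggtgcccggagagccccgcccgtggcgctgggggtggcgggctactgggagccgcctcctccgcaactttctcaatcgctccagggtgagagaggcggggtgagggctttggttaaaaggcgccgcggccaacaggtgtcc
Gjb6 (chr14:57133612-57133861, minus strand): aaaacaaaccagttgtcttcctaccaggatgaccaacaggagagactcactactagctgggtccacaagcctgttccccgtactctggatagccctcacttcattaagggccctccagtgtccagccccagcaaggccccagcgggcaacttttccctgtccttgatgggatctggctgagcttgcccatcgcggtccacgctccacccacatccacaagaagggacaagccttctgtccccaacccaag
Panx1 (chr9:15045479-15045728, minus strand): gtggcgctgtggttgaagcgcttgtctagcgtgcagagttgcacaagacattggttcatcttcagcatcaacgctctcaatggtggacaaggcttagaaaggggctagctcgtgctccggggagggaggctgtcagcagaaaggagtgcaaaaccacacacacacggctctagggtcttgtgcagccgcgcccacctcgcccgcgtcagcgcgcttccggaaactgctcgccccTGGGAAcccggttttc
TGGGAA was searched on both strands and was found in 21.6% of 32851 mouse promoter windows of this length. The letters AGATAA were found in 9.99% of them and, among the 7 genes, in that of *Gja1*. They are a core motif of the factor family that holds *Gata2*, an endothelial gene named below. The *Gjb2* window was the richest of the 4 shown in G and C (69.2%, with 18 CpG pairs), against 56.8% and 5 CpG pairs in *Gjb6*, 56.4% and 7 in *Gja5*, and 59.6% and 17 in *Panx1*. The median of all windows was 52.4% and 6 CpG pairs. A match of letters is a description of the sequence and no evidence of binding.

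*Notch3*, the gene targeted or added in these mice, followed the labels. Its level in *Notch3*+/+ mice was 83.6 ± 12.0 CPM (65.8, 82.8, and 98.1), against 16.2 ± 1.82 CPM (13.7, 16.4, and 18.5) in *Notch3*-/- mice (log2 fold change -2.37, adjusted p = 1.39e-10). WT mice had 73.2 ± 8.19 CPM (60.1, 70.9, and 85.0), and TgNotch3R169C mice 181.9 ± 34.5 CPM (108.0, 185.7, and 218.8). Reads of the rat transgene and of the mouse gene cannot be told apart in the counts.

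The arteries carried the markers of their own cells and of neighboring tissue. Summed levels of 10 endothelial markers ranged from 1590 to 2390 CPM, and those of 10 smooth muscle markers, such as *Acta2* and *Tagln*, from 1134 to 4278 CPM. Markers of leptomeningeal fibroblasts, such as *Dcn* and *Col1a2*, summed to 4577 to 7198 CPM, astrocyte markers such as *Gfap* and *Slc1a2* to 1672 to 3169 CPM, and oligodendrocyte markers such as *Mbp* to 839 to 2620 CPM. Choroid plexus markers, led by *Ttr*, summed to over 1000 CPM in 7 libraries. These were *Notch3*-/- replicate 8, TgNotch3R169C replicates 5 and 8, and WT replicates 2, 4, 5, and 6. The list reached 26138 CPM in WT mice and at most 671.9 CPM in *Notch3*+/+ mice. Calls of the 8 genes and of the connexin lists that rest on these libraries are also given without them. In bulk tissue, fewer cells of a type and less RNA per cell cannot be told apart.

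*Gjb6*, *Gjb2*, and *Gja1* were the most abundant of the 8 genes. Per kilobase of exon, over all 32 libraries, *Gjb6* was at 274 CPM, *Gjb2* at 247 CPM, and *Gja1* at 54.9 CPM. *Gja4* followed at 19.98 CPM per kilobase, then *Gja5* at 5.91, *Gjc1* at 3.56, *Gjb1* at 2.34, and *Panx1* at 1.28. Lengths are those of all annotated exons of a gene, so they rank genes only roughly. *Gjb1* varied most among mice, with 9.42-fold between its lowest and highest library, and *Gja5* next, with 4.19-fold. The other 6 genes spanned 1.73-fold (*Gjb6*) to 2.57-fold (*Gja4*).

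**Figure D1:**
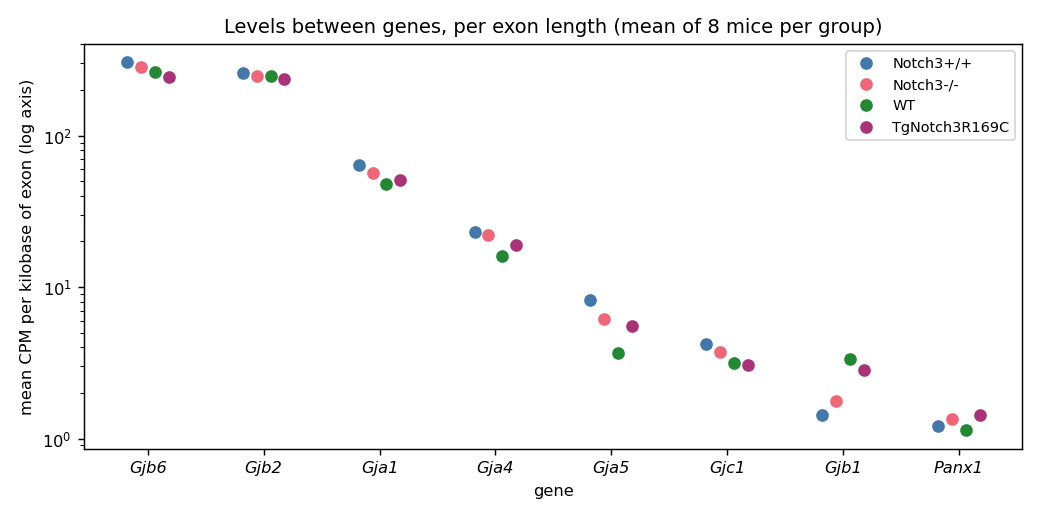
Mean CPM per kilobase of exon (log axis) of each gene, with 1 point per group of 8 mice. Gjb6 and Gjb2 lie above the other genes in all 4 groups, and the means of Gja5 and Gjb1 are spread most between groups.

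*Gja5*, which encodes Cx40 of arterial endothelium, was highest in *Notch3*+/+ mice at 47.1 ± 15.8 CPM (17.0, 48.2, and 68.5). *Notch3*-/- mice had 35.6 ± 9.81 CPM (19.0, 39.3, and 46.9), TgNotch3R169C mice 32.03 ± 3.65 CPM (25.6, 31.2, and 37.8), and WT mice 21.1 ± 3.53 CPM (16.4, 20.8, and 26.8). Mice of 3 months were spread more widely than mice of 12 months, and 1 young control, *Notch3*+/+ replicate 3, was as low as the WT mice. That library was also the highest of its group in summed neuron markers, at 1733 CPM against a group median of 403 CPM. The part of neural tissue in its *Gja5* level was not tested. All 8 TgNotch3R169C mice lay above the WT mean and 7 above the highest WT mouse, at a ratio of means of 1.51. The log2 fold change of *Gja5* in TgNotch3R169C mice was 0.60, and it was 0.63 without the libraries rich in choroid plexus markers. *Gja5* was 1 of the 8 genes called higher there, where 0.102% of all genes were, and this call is what chose the set. It was not called without WT replicate 3 or without WT replicate 4, when no member was called, nor without the libraries rich in choroid plexus markers, nor with all 4 groups in 1 fit.

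*Gja5* did not pass the test in *Notch3*-/- mice. The log2 fold change was -0.40 (SE 0.23, 95% CI -0.90 to 0.09, adjusted p = 0.782), and all 8 *Notch3*-/- mice lay below the *Notch3*+/+ mean. The ranges of the 2 groups overlapped throughout. Without *Notch3*+/+ replicate 3 the log2 fold change was -0.53 (adjusted p = 0.376).

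*Gja4*, which encodes Cx37, the other connexin of arterial endothelium, was measured in *Notch3*+/+ mice, 38.9 ± 6.51 CPM (28.3, 40.4, and 46.2), and *Notch3*-/- mice, 36.9 ± 7.11 CPM (28.2, 34.2, and 49.5). WT mice had 26.9 ± 5.35 CPM (19.3, 29.2, and 32.1) and TgNotch3R169C mice 31.9 ± 4.76 CPM (25.9, 31.2, and 40.8). Both pairs of ranges overlapped. The log2 fold change was -0.07 in *Notch3*-/- mice (SE 0.12, adjusted p = 0.970) and 0.24 in TgNotch3R169C mice, of which 7 lay above the WT mean and 3 above the highest WT mouse.

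*Gjc1*, which encodes Cx45, had a mean of 21.2 ± 3.07 CPM for *Notch3*+/+ (17.6, 20.5, and 26.4), 18.7 ± 1.81 CPM for *Notch3*-/- (16.3, 18.9, and 21.7), 15.8 ± 1.38 CPM for WT (13.98, 15.9, and 17.6), and 15.4 ± 0.832 CPM for TgNotch3R169C mice (14.5, 15.4, and 17.1). The WT and TgNotch3R169C ranges nearly coincided, at a log2 fold change of -0.04. In *Notch3*-/- mice it was -0.18 (SE 0.08, adjusted p = 0.654). It passed the test only when the endothelial marker list was a covariate (-0.26, adjusted p = 0.0122), and its sign turned with the smooth muscle list as covariate (0.09, adjusted p = 0.913). The smooth muscle list summed to 1683 to 2543 CPM in *Notch3*-/- mice and 2441 to 4278 CPM in *Notch3*+/+ mice. It nearly separates the 2 groups, so that fit can hardly tell the list from the genotype.

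**Figure D2:**
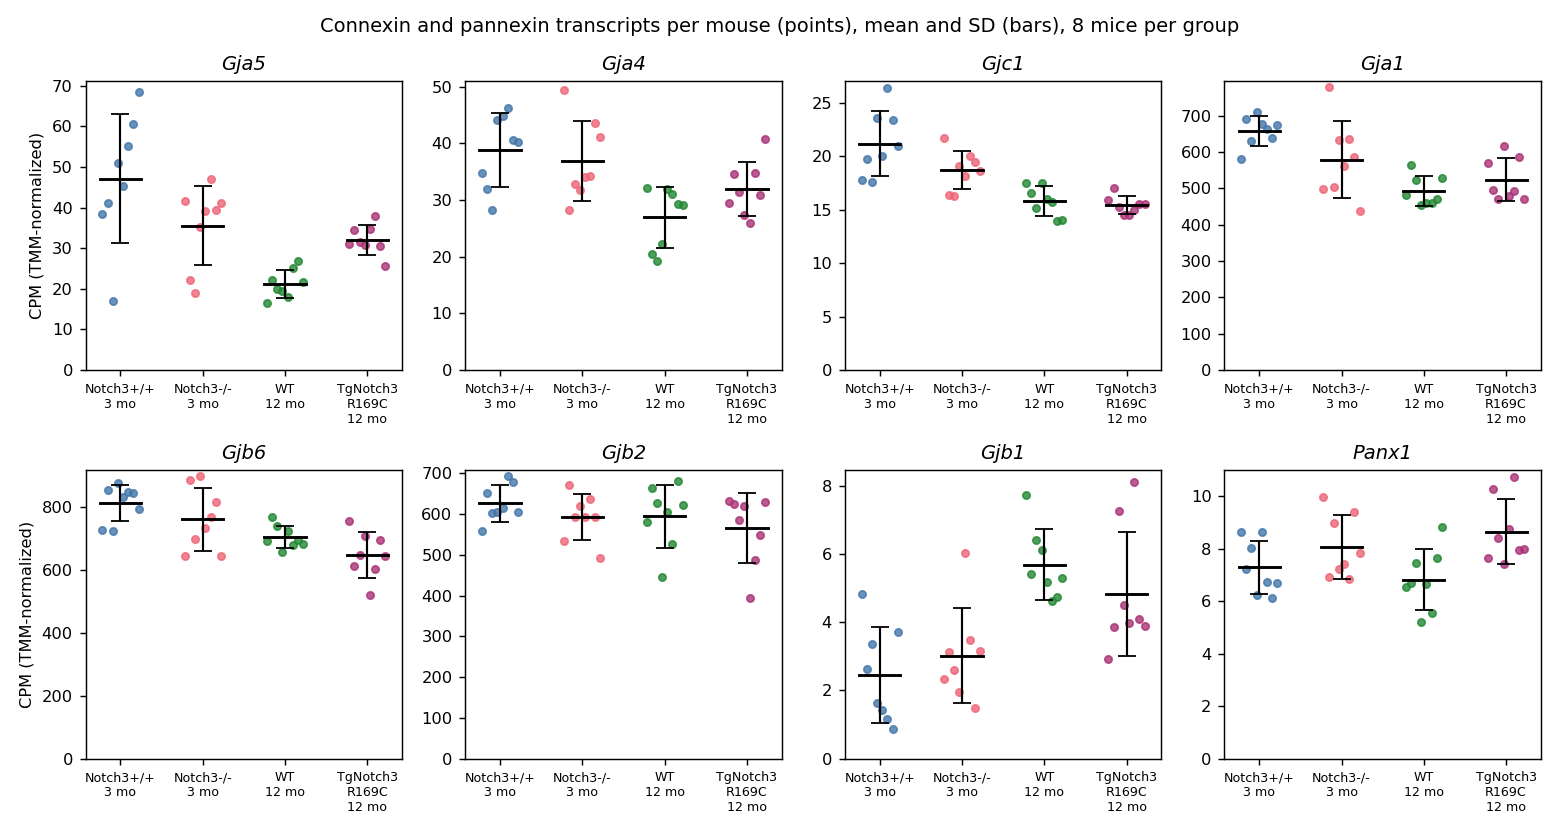
CPM of each gene in each mouse (points) with the group mean and SD (bars), each panel on its own axis from 0. The Gja5 points of TgNotch3R169C mice lie above the WT mean. Gja1 and Gjc1 of WT mice lie below every Notch3+/+ mouse, and how many of all genes do so was not counted.

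*Gja1*, which encodes Cx43, the most widespread connexin, stood at 658 ± 40.8 CPM (581, 669, and 710.4) for *Notch3*+/+ and 579 ± 106 CPM (438, 573, and 778) for *Notch3*-/- mice. Of the 8 *Notch3*-/- mice, 4 lay below every *Notch3*+/+ mouse and 1 above, and the log2 fold change of -0.18 did not pass the test (SE 0.09, adjusted p = 0.688). In 12-month-old mice the means were 492.7 ± 40.5 CPM in WT mice (455, 476, and 565) and 523 ± 59.1 CPM in TgNotch3R169C mice (470.2, 493.5, and 618). The log2 fold change between them was 0.09, with 4 TgNotch3R169C mice above the WT mean.

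*Gjb6*, which encodes Cx30, averaged 814 ± 58.4 CPM for *Notch3*+/+ (726, 839, and 878), 762 ± 101 CPM for *Notch3*-/- (644, 752, and 901), 705 ± 36.4 CPM for WT (657, 694, and 768), and 649 ± 72.9 CPM for TgNotch3R169C mice (520.3, 648, and 757). Of the 8 TgNotch3R169C mice, 5 lay below every WT mouse, at a log2 fold change of -0.12. In *Notch3*-/- mice it was -0.09 (SE 0.07, adjusted p = 0.879). *Gjb2*, which encodes Cx26, averaged 627 ± 44.9 CPM for *Notch3*+/+ (558, 611, and 694), 592 ± 56.7 CPM for *Notch3*-/- (492, 594, and 671), 594 ± 77.2 CPM for WT (445, 614, and 682), and 565 ± 85.7 CPM for TgNotch3R169C mice (393, 603, and 633). The 4 ranges of *Gjb2* overlapped, with a log2 fold change of -0.08 in *Notch3*-/- mice (SE 0.06, adjusted p = 0.870) and -0.07 in TgNotch3R169C mice.

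*Gjb1*, which encodes Cx32 and is the X-linked member of the set, was the least abundant in counts per library. Its level was 2.45 ± 1.41 CPM for *Notch3*+/+ (0.861, 2.13, and 4.81), 3.02 ± 1.38 CPM for *Notch3*-/- (1.47, 2.87, and 6.02), 5.69 ± 1.03 CPM for WT (4.62, 5.36, and 7.73), and 4.83 ± 1.83 CPM for TgNotch3R169C mice (2.94, 4.03, and 8.11). The library with the fewest *Gjb1* reads had 25. Its log2 fold change was 0.30 in *Notch3*-/- mice (SE 0.35, adjusted p = 0.939) and -0.24 in TgNotch3R169C mice, with 6 of 8 mice below every WT mouse and 1 above.

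*Panx1*, the ATP-releasing pannexin, averaged 7.29 ± 1.02 CPM for *Notch3*+/+ (6.13, 6.99, and 8.66), 8.07 ± 1.21 CPM for *Notch3*-/- (6.84, 7.62, and 9.96), 6.83 ± 1.15 CPM for WT (5.22, 6.68, and 8.82), and 8.66 ± 1.23 CPM for TgNotch3R169C mice (7.41, 8.21, and 10.7). All 8 TgNotch3R169C mice lay above the WT mean, but only 2 lay above the highest WT mouse. The log2 fold change there was 0.34, and it was 0.20 without the libraries rich in choroid plexus markers, a list whose median log2 fold change in this comparison was -1.06. In *Notch3*-/- mice it was 0.15 (SE 0.10, adjusted p = 0.853).

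In the knockout comparison, 0 of the 8 genes passed the test of edgeR, where 115 of 17714 genes were called (0.649%). At an unadjusted p below 0.05 there were 0 of the 8, against 7.69% of all genes. DESeq2 also called 0 of the 8. Of the 8, 6 had a negative log2 fold change, with a median of -0.09 against -0.0011 over all genes. The 95% intervals bounded the changes of *Gjb2* to between -0.21 and 0.05, of *Gjb6* to between -0.25 and 0.06, and of *Gja4* to between -0.33 and 0.18, while that of *Gjb1* ran from -0.44 to 1.04. Those of *Gja1* (-0.38 to 0.01) and *Gjc1* (-0.36 to 0.0017) reached only just above 0.

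**Figure D3:**
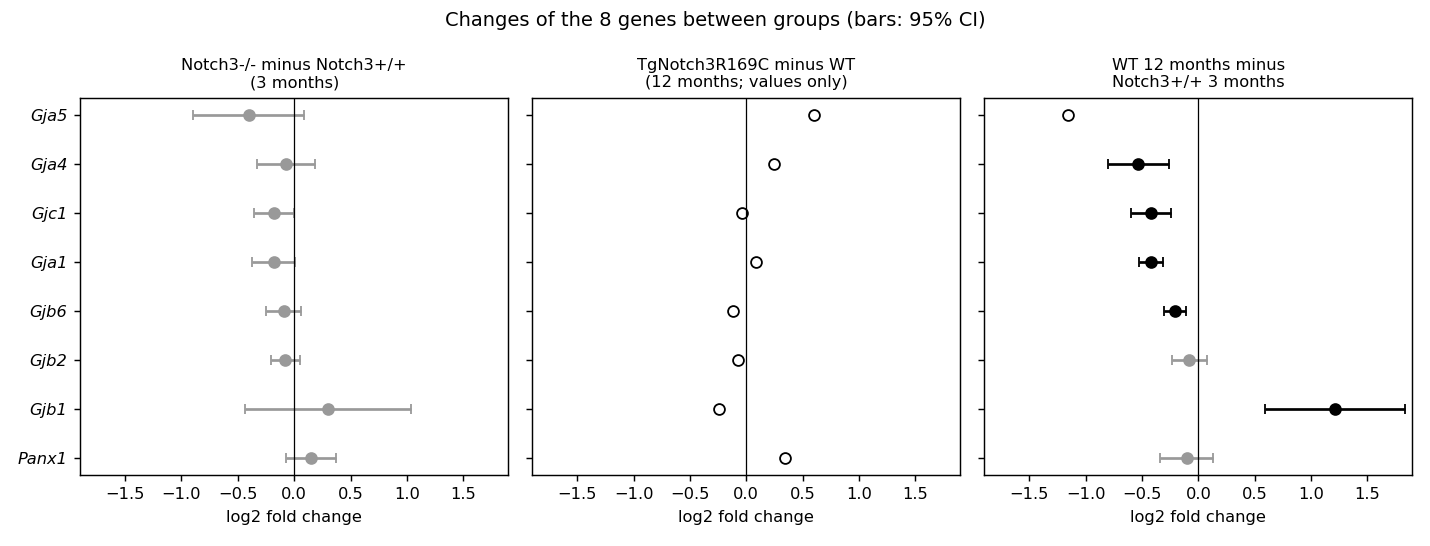
Log2 fold changes of the 8 genes in 3 comparisons, with 95% CIs where a test was made. Black points passed the test, gray points did not, and open points are given as values with no test. No interval in Notch3-/- mice excludes 0, and 4 genes are lower and Gjb1 higher in the tested comparison of the control groups.

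The 2 control groups differed in age, colony, and cohort, which cannot be told apart. In WT mice of 12 months, 5 genes were lower than in *Notch3*+/+ mice of 3 months, where 4.05% of 17643 genes were lower, and 1 was higher, where 3.87% were (7.92% in either direction). The lower genes were *Gja1*, *Gja4*, *Gja5*, *Gjc1*, and *Gjb6*, and the higher gene was *Gjb1*. *Gja5* shares its WT mice with the comparison that chose it. Its place among the 5 and its log2 fold change of -1.16 are therefore a description and not a test. On the log2 scale *Gja1* fell by 0.42 (adjusted p = 0.000338, SE 0.05). *Gjc1* fell by 0.42 as well (adjusted p = 0.00680, SE 0.08), and for both genes every WT mouse lay below every *Notch3*+/+ mouse. The share of all genes separated in this way was not counted, so the separation is a description. *Gja4* fell by 0.53 (SE 0.13, adjusted p = 0.0180), with all 8 WT mice below the *Notch3*+/+ mean and 3 below its lowest mouse. *Gjb6* fell by 0.21 (SE 0.05, adjusted p = 0.0134), with 6 WT mice below every *Notch3*+/+ mouse. *Gjb1* rose by 1.21 (SE 0.29, adjusted p = 0.0196), with all 8 WT mice above the *Notch3*+/+ mean. *Gjb2* (-0.08, SE 0.07, adjusted p = 0.557) and *Panx1* (-0.10, SE 0.11, adjusted p = 0.626) did not pass the test.

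Markers of other cells moved with this difference. All 10 smooth muscle markers were lower in the older controls (median -0.88), 8 of 10 choroid plexus markers (median 3.95) and 4 of 10 oligodendrocyte markers (median 0.64) were higher, and 1 of 10 endothelial markers, *Pecam1*, was lower (-0.52, adjusted p = 0.00285). Of leptomeningeal fibroblast markers 2 of 10 were lower (median -0.09), of pericyte markers 2 of 8 were higher and 1 lower, and of astrocyte markers 2 of 10 were higher. Without the 4 WT libraries rich in choroid plexus markers, 8 smooth muscle markers were called lower and 0 oligodendrocyte markers were called by edgeR (median 0.81), and 2 of the 8 genes were called. These were *Gja1* (-0.40, adjusted p = 0.00916) and *Gjc1* (-0.48, adjusted p = 0.0471). *Gja4* (-0.51, adjusted p = 0.0976), *Gjb6* (-0.21, adjusted p = 0.0819), and *Gjb1* (1.30, adjusted p = 0.0955) had similar values and were no longer called, and *Gja5* was at -1.16 and not called either. *Gja1* alone was called with the endothelial list (-0.36, adjusted p = 0.00877) or the fibroblast list (-0.37, adjusted p = 0.00855) as covariate. With the smooth muscle list as covariate 0 of the 8 and 0 of all genes were called. That list summed to at most 2076 CPM in WT mice and at least 2441 CPM in *Notch3*+/+ mice. It separates the 2 groups, so this fit cannot tell the list from the group.

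Within groups, each connexin could be set against the tissue in its library. The deviation of each library from its group mean was correlated between the 8 genes and 10 marker lists, 80 pairs in all, over 32 libraries, with 100000 permutations within groups and Benjamini-Hochberg adjustment over the 80. *Gjb1* moved with the oligodendrocyte list (Pearson r = 0.87, permutation p = 1e-05, the smallest they can give, adjusted p = 0.0008, Spearman rho = 0.81, adjusted p = 0.0008), also without the 2 libraries farthest from the median (r = 0.83). Within single groups r was 0.93 in *Notch3*+/+, 0.87 in *Notch3*-/-, 0.41 in WT, and 0.92 in TgNotch3R169C mice. The libraries high in oligodendrocyte markers were those high in *Gjb1*, with the weakest relation among WT mice.

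The 3 abundant connexins moved with the list of leptomeningeal fibroblast markers. Pearson r was 0.75 for *Gjb6* (permutation p = 3e-05, adjusted p = 0.0012, rho = 0.70), 0.71 for *Gjb2* (p = 8e-05, adjusted p = 0.00213, rho = 0.61), and 0.62 for *Gja1* (p = 0.00075, adjusted p = 0.015, rho = 0.52). The adjusted permutation p of rho was 0.002, 0.0109, and 0.096, so the rank relation of *Gja1* missed the threshold. All 3 were positive in each of the 4 groups. Without the 2 libraries farthest from the median, r was 0.62, 0.54, and 0.55, and only *Gjb6* kept an adjusted permutation p below the threshold (0.0288, against 0.0544 for each of the others). With the astrocyte list no relation of the 3 passed, with r of -0.18 for *Gjb6*, -0.14 for *Gjb2*, and -0.05 for *Gja1*.

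By Pearson r, each arterial gene had its highest correlation with the endothelial list. Pearson r was 0.55 for *Gjc1* (permutation p = 0.00129, adjusted p = 0.0206, rho = 0.58, adjusted p = 0.0194), 0.46 for *Gja4* (p = 0.0105, adjusted p = 0.0764, rho = 0.40), and 0.42 for *Gja5* (p = 0.0162, adjusted p = 0.0994, rho = 0.41). With the smooth muscle list r was close to these values for *Gjc1* (0.50, rho = 0.51, adjusted permutation p of r = 0.0764) and *Gja4* (0.43, rho = 0.44, adjusted permutation p of r = 0.0999). Only *Gjc1* with the endothelial list passed, and it missed the threshold without *Notch3*+/+ replicate 1, 3, or 6 (adjusted permutation p = 0.0566, 0.0539, and 0.0725). *Gja4* passed without WT replicate 2 (r = 0.52, adjusted permutation p = 0.0455). Within single groups, r of *Gjc1* with the endothelial list was 0.90 in *Notch3*+/+, 0.92 in *Notch3*-/-, -0.17 in WT, and 0.47 in TgNotch3R169C mice. That of *Gja4* was 0.72, 0.69, 0.20, and 0.33 in the same order. For *Gja5*, r was 0.70 in *Notch3*+/+ and 0.76 in *Notch3*-/- mice and -0.03 in WT and -0.18 in TgNotch3R169C mice. Whether these relations differed between ages was not tested. *Gja5* showed no relation to the smooth muscle list (r = 0.23) or the choroid plexus list (r = 0.01) that passed.

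*Panx1* passed with none of the 10 lists, and its largest r was -0.29, with choroid plexus. In all, 9 of the 80 pairs passed, 8 of them positive. Beyond the 5 above, the other 4 were all of *Gjb2*, with endothelium (0.53), pericytes (0.55), macrophages and microglia (0.51), and choroid plexus (-0.55), at adjusted permutation p of 0.0478 to 0.0486. None of these 4 passed by rank (adjusted permutation p of rho from 0.261 to 0.277), and without the 2 libraries farthest from the median r was 0.23, 0.38, 0.45, and -0.31. Leaving out 1 library gave between 4 and 10 pairs that passed.

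**Figure D4:**
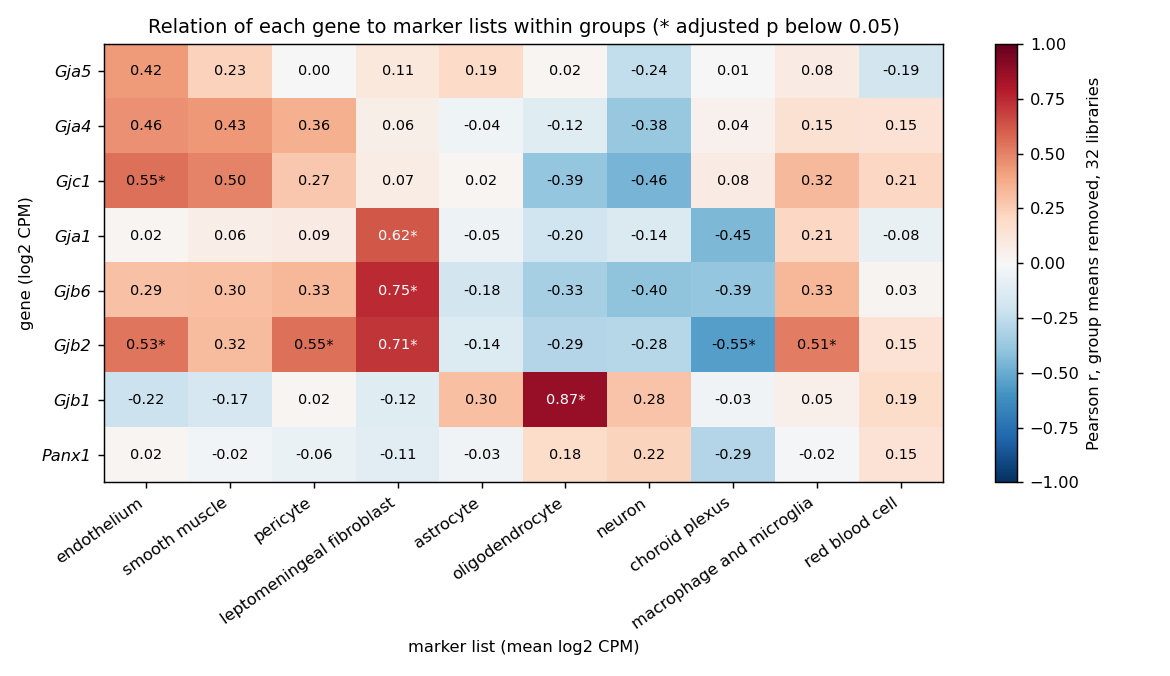
Pearson r between the deviation of each gene (rows) and of each marker list (columns) from its group mean over 32 libraries, with an asterisk where the adjusted permutation p is below 0.05. Gjb1 stands out with oligodendrocyte markers (0.87), and Gja1, Gjb6, and Gjb2 with leptomeningeal fibroblast markers (0.62 to 0.75).

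**Figure D5:**
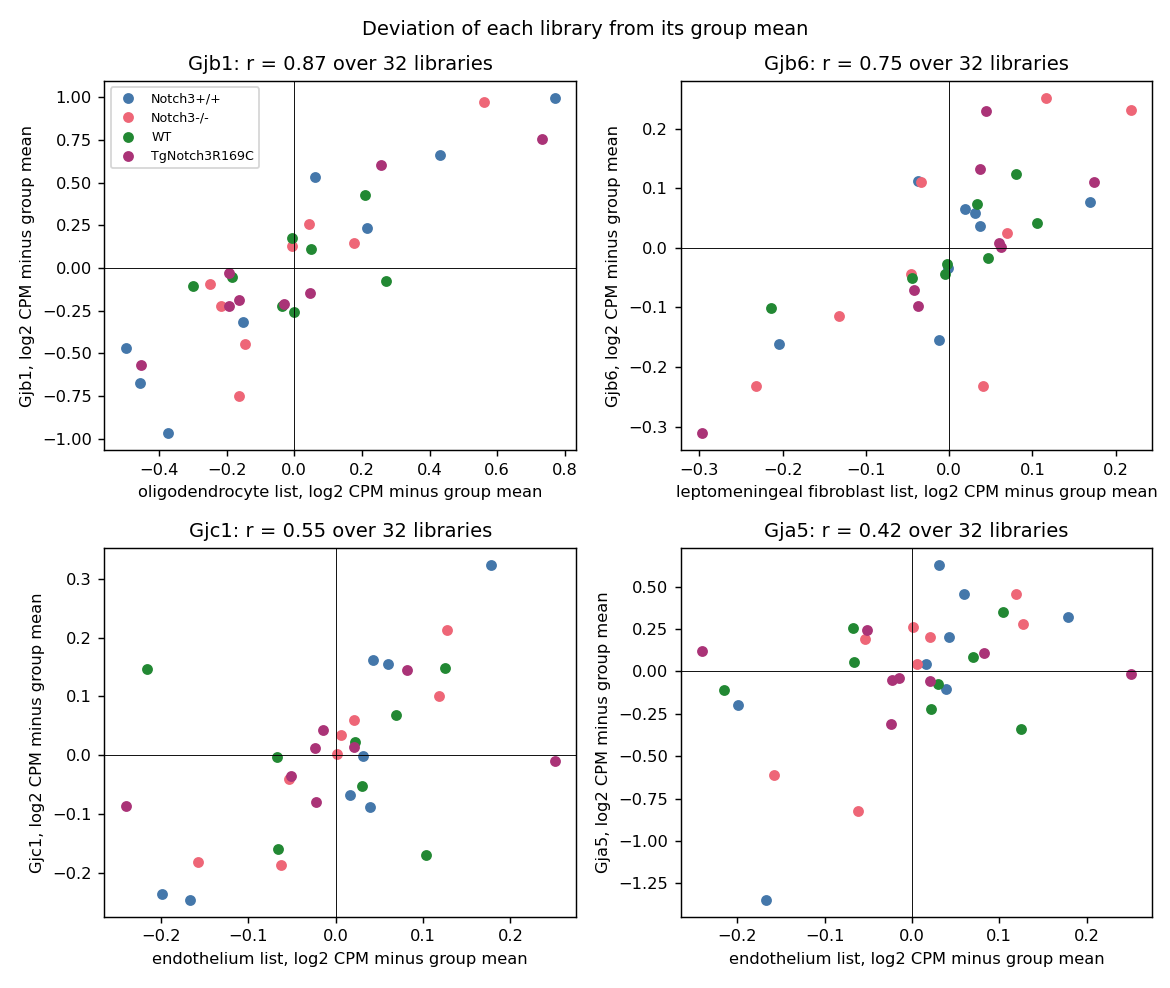
Deviation of 4 genes from their group mean (log2 CPM) against that of a marker list, 1 point per library. The points of Gjb1 and Gjb6 follow a line, while those of Gja5 do so only in part, with 1 Notch3+/+ and 2 Notch3-/- libraries far below the rest.

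The levels of the 8 genes were also correlated with each other across the same 32 libraries, as a description with group means removed. *Gja1* and *Gjb6* had r = 0.79, the neighboring genes *Gjb2* and *Gjb6* r = 0.71, and *Gja1* and *Gjb2* r = 0.52. Among the arterial genes, r was 0.51 for *Gja5* and *Gjc1*, 0.47 for *Gja4* and *Gjc1*, and 0.42 for *Gja4* and *Gja5*. *Gjb1* and *Panx1* had no r above 0.13 and 0.19 with any of the others, and the most negative pair was *Gjb1* with *Gjc1*, at r = -0.45. Libraries share depth and tissue content, so these values describe covariation among mice.

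Of 15518 genes compared, the 5 most like *Gja5* were *Notch4* (r = 0.84), a Notch receptor of endothelium, *Eps15l1* (0.79), *Gata2* (0.78), a transcription factor, *F2rl1* (0.76), the protease-activated receptor 2, and *Ptprm* (0.75), a receptor tyrosine phosphatase. *Notch4* itself was at 85.2 CPM in *Notch3*+/+, 89.9 CPM in *Notch3*-/-, 73.4 CPM in WT, and 87.9 CPM in TgNotch3R169C mice. Its log2 fold change was 0.08 in *Notch3*-/- mice (adjusted p = 0.971) and 0.26 in TgNotch3R169C mice. Those most like *Gja4* were *Bmx* (0.79), a kinase of arterial endothelium, *Bcam* (0.77), *Mmrn2* (0.76), *Fbln5* (0.75), and *Rgs3* (0.74), and those most like *Gjc1* were *Actn4* (0.80), *Ntn4* (0.77), *Msrb3* (0.77), *Tinagl1* (0.76), and *Wtip* (0.73).

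*Gjb1* was most like *Mbp* (0.94), myelin basic protein, *Ugt8a* (0.93) and *Fa2h* (0.91), which make myelin lipids, *Klk6* (0.89), and *Bcas1* (0.88). *Slc24a3* and *Clmp* were among the 5 genes most like both *Gja1* (0.81 and 0.78) and *Gjb6* (each 0.82). The rest were *Gjb6* (0.79), *Slc35b4* (0.79), and *4921539H07Rik* (0.78) for *Gja1* and *Vangl1* (0.86), *Eya2* (0.83), and *Dse* (0.82) for *Gjb6*. For *Gjb2* they were *Olfml2a* (0.86), *Fam174b* (0.86), *Cxcl12* (0.83), *Gypc* (0.82), and *Sned1* (0.81), and for *Panx1* *Zfp853* (0.76), *Usp22* (0.71), *Inhbb* (0.71), *Espn* (0.71), and *Nol3* (0.70).

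Of the 15 other connexins and pannexins, 7 passed the filter on low counts. *Gjc3*, a connexin of myelinating glia, was at 10.04 CPM in *Notch3*+/+, 10.3 CPM in *Notch3*-/-, 19.5 CPM in WT, and 16.4 CPM in TgNotch3R169C mice. *Panx2* lay between 9.24 and 15.8 CPM, and *Gja3*, *Gjb5*, and *Gjd2* had mean levels of 0.715 to 1.34 CPM. In *Notch3*-/- mice 0 of the 7 passed the test of edgeR, against 0.649% of all genes, and 0 had an unadjusted p below 0.05, against 7.69%. Between the control groups, *Gjc3* was higher (0.96, adjusted p = 0.0123) and *Gja3*, a connexin known from the lens, was lower (-0.62, adjusted p = 0.0134) in WT mice of 12 months. Without the choroid-rich libraries *Gjc3* was at 1.14 (adjusted p = 0.0427) and *Gja3* at -0.60 and not called (adjusted p = 0.134). *Gje1* had no counts in any of the 32 libraries.

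Genes that connexins work with were examined next, first in *Notch3*-/- mice. Of 15 connexin partners and trafficking genes, 14 genes of conducted dilation and the myoendothelial junction, 14 genes of ATP release and purinergic signaling, and 17 genes of the arterial endothelial program, 1 was called. That gene was *P2rx1*, the ATP-gated channel of arterial smooth muscle, which fell by 0.73 (SE 0.15, adjusted p = 0.0281), from 17.5 to 10.5 CPM, where 0.452% of all genes were lower. Without *Notch3*-/- replicate 8, the library rich in choroid plexus markers, it was at -0.68 and not called (adjusted p = 0.0544). In the same mice 6 of 10 smooth muscle markers were lower (median -0.59), led by *Myh11* (-1.04, adjusted p = 0.000395), and 5 of them without that replicate. The part of the marker change in that of *P2rx1* was not tested. The abundant partners *Nedd4* (-0.03, adjusted p = 0.956) and *Ctnnb1* (0.02, adjusted p = 0.973), *Itpr1* (-0.17, adjusted p = 0.887), and the endothelial genes *Eng* (0.05, adjusted p = 0.946) and *Efnb2* (-0.06, adjusted p = 0.946) did not pass.

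In TgNotch3R169C mice, 0 genes of the 4 lists were called by edgeR. *P2rx1*, called in *Notch3*-/- mice, was at -0.64 here (SE 0.16, adjusted p = 0.237). Before adjustment, 1, 4, 2, and 5 genes of the lists, in the order above, had a p below 0.05. These were 6.67%, 28.6%, 14.3%, and 29.4% of the lists, against 7.27% of all genes. The lists were chosen with earlier results of these data known. Of 17 arterial endothelial genes, 14 had a positive log2 fold change (median 0.14), against a median of -0.01 over all genes tested, and 9 of 10 endothelial markers did (median 0.10). All 10 neuron markers (median 0.40) and all 10 astrocyte markers (median 0.17) had a positive log2 fold change as well. Within TgNotch3R169C mice the r of *Gja5* was 0.77 with the neuron list and 0.86 with the astrocyte list. In *Notch3*+/+, *Notch3*-/-, and WT mice it was -0.80, -0.11, and 0.50 with the neuron list and -0.06, 0.53, and 0.02 with the astrocyte list. Over all 32 libraries neither relation passed (r = -0.24 and 0.19, adjusted permutation p = 0.537 and 0.697). The part of these markers in the value of *Gja5* was not tested. With the endothelial markers as covariate *Gja5* had a log2 fold change of 0.61. All 10 smooth muscle markers had a negative log2 fold change (median -0.23), and 0 were called (5 at an unadjusted p below 0.05). With the smooth muscle list as covariate, *Gja5* was at 0.56, and it was called with neither covariate.

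Between the control groups, 5 genes of the 4 lists passed, where 7.92% of all genes did. *Ccn3*, a secreted protein that binds Cx43, was lower (-0.47, adjusted p = 0.00467) and *Tjp3*, a tight junction scaffold, higher (1.23, adjusted p = 0.0433) in WT mice of 12 months. *Trpv4*, a calcium-permeable channel of endothelium that is also strongly expressed in choroid plexus, was higher (1.19, adjusted p = 0.0492), at 67.5 against 29.6 CPM. *Cacna1c*, the L-type calcium channel of smooth muscle, was lower (-0.31, adjusted p = 0.0308), and so was *P2rx1* (-1.21, adjusted p = 0.000420). Without the 4 choroid-rich WT libraries, *Ccn3* (-0.48, adjusted p = 0.0429) and *P2rx1* (-1.12, adjusted p = 0.0162) were still called, while *Tjp3* (0.02, adjusted p = 0.977), *Trpv4* (-0.05, adjusted p = 0.895), and *Cacna1c* (-0.20, adjusted p = 0.195) were not. In that fit *Itpr3* (0.27, adjusted p = 0.0308) and *P2rx4* (0.23, adjusted p = 0.0240), genes of dilation and ATP signaling, were called higher instead. Of the 17 arterial endothelial genes 0 passed the test of edgeR. At an unadjusted p below 0.05 there were 7 (41.2%), against 24.2% of all genes. Of the 17, 16 had a negative log2 fold change (median -0.17). Over all genes tested, 8935 of 17643 had a positive one (median 0.0026). Whether *Gja4* fell together with these genes was not tested.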

How the data were processed

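RNA was sequenced from brain arteries of 32 mice, 8 per group, grouped by the genotype and age in the labels. The deposited values are read counts of each Ensembl gene, which the authors left without normalization. The submitters' processing notes name bcl2fastq 2.20.0.422, cutadapt 1.10, Bowtie2 2.2.8, STAR 2.5.3a, HTSeq 0.6.1p1, and the mm39 build. The annotation release and the strand setting of the counting are not given in the sources used here.

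Low counts were removed by filterByExpr and libraries scaled by TMM. The quasi-likelihood test of edgeR 4.0.16 (glmQLFit, glmQLFTest, in R 4.3.3) was fitted to the 2 groups compared, over 17714, 17731, and 17643 genes. A gene was called when its p, adjusted by the Benjamini-Hochberg method, was below 0.05. CPM used TMM over all 32 libraries. Exon lengths came from GENCODE vM21, which is of another build (GRCm38) and was used for length only, and promoter sequences from RefSeq (GRCm38.p6). Correlations used log2(CPM + 0.5), less the group mean. Read totals of 20289487 to 54481934 per library put at least 25 reads on each of the 8 genes in each library. The genes and lists were chosen with earlier results of these data known. Genes named are the 8 members, *Notch3*, of each list the genes called (up to 4 per comparison) or otherwise the 2 most abundant, other connexins and pannexins past the filter, and the 5 genes most like each member with a mean of at least 1 CPM. *Gje1*, *Myh11*, *Itpr3*, and *P2rx4* were added after their values were seen. Some genes that this rule names are not reported here. The fits were tested on simulated data. Replicates are separate mice, and none was a duplicate of another. Alternatives were other normalizations and filters, DESeq2 1.42.0, limma 3.58.1 voom, all groups in 1 fit, marker lists as covariates, each mouse left out, the replicate number as a block, and, chosen after seeing the data, leaving out libraries with over 1000 CPM of choroid plexus markers.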

Additional observations from a re-analysis of the deposited data

Results flagged for a closer look

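*Gjb1* in *Notch3*-/- replicate 5 stood at 6.02 CPM, above the next mouse of its group at 3.47 CPM, a gap of 0.562 of the group's range. This is more than chance gives in 1 of 20 groups of 8, and 32 groups of 8 were examined, of which chance would mark 1.6. The same library was the highest of its group in the oligodendrocyte marker list, with which *Gjb1* moved across libraries. Without it, the log2 fold change of *Gjb1* in *Notch3*-/- mice was 0.08 in place of 0.30.

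*Gja5* had a log2 fold change of 0.60 in TgNotch3R169C mice and -0.40 in *Notch3*-/- mice, a difference of 1. Every TgNotch3R169C mouse lay above the WT mean and every *Notch3*-/- mouse below the *Notch3*+/+ mean. The change in *Notch3*-/- mice did not pass the test of edgeR (adjusted p = 0.782), and no *Notch3*-/- mouse lay below the lowest *Notch3*+/+ mouse. Under the alternative fits the log2 fold change of *Gja5* in *Notch3*-/- mice ranged from -0.60 to -0.09. The difference was not tested, since *Gja5* was chosen for 1 of the 2 changes, and the groups also differ in age and colony.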

How the results depend on the processing

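Of the 8 genes, 0 were called in the knockout comparison under each alternative but 1, the endothelial list as covariate, which called 1 (*Gjc1*, -0.26). With the smooth muscle list as covariate, log2 fold changes reversed to 0.17 for *Gja4*, 0.0931 for *Gjc1*, and -0.33 for *Gjb1*. That list was itself lower in *Notch3*-/- mice, so such a fit can hardly tell the list from the genotype. Genes called in all were 115, and 280 with DESeq2, 174 with all 4 groups in 1 fit, and 19 with the smooth muscle list as covariate. In the CADASIL comparison *Gja5* stayed between 0.55 and 0.65 without any 1 mouse, but members called were 0 with all 4 groups in 1 fit, with the endothelial or the smooth muscle list as covariate, and without the libraries rich in choroid plexus markers, and 0 to 1 without any 1 mouse. The cause was not tested. All genes called there were 20, and 74 with DESeq2, 9 and 35 with the endothelial and fibroblast lists as covariates, 2 without the choroid-rich libraries, and 11 to 26 without any 1 mouse.

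In the control comparison, members called were 6, with *Gja5* among them as a description. Members called were 1 with the endothelial or the fibroblast list as covariate, 0 with the smooth muscle list, which separates the groups, 2 with the choroid plexus list, and 2 without the choroid-rich libraries. All genes called there were 1398, and 2357 with DESeq2, 218, 0, 289, and 258 with the endothelial, smooth muscle, choroid plexus, and fibroblast lists, 402 without the choroid-rich libraries, and 895 (without *Notch3*+/+ replicate 7) to 1621 without any 1 mouse. *Gjb2* reversed to 0.0609, 0.0887, 0.0434, and 0.0463 with these 4 lists and to 0.00072 without the choroid-rich libraries, and *Panx1* to 0.0475 with the choroid plexus list and 0.0576 without those libraries. The pairs of gene and marker list that passed numbered 4 to 10 without any 1 library, the fewest (4) without *Notch3*+/+ replicate 1, 3, or 6.

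With the replicate number as a block, genes called were 97 in the knockout comparison, 6 in the CADASIL comparison (members 0), and 715 in the control comparison, where *Gjb6* was no longer called (adjusted p = 0.0546). The labels repeat numbers 1 to 8 in each group. In the same order of comparisons, deviations of libraries with the same number had a correlation over 0.1 in 4, 4, and 3 of 8 pairs. They were the best match of a library in 3, 1, and 2. The median correlation was 0.0865, 0.109, and 0.0094 for pairs of the same number, against -0.036, -0.021, and -0.0017 for other pairs. Whether libraries of the same number share more than that number was not tested.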
